A study of Homo sapiens with 12 samples.

Results

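The RNA levels of 9 genes that make or import the building blocks of DNA were compared across 4 cell lines. They were RRM1, RRM2, and RRM2B (the subunits of ribonucleotide reductase), TYMS, DUT, and DCTD (the route to thymidylate), TK1 and DCK (the salvage kinases), and SLC29A1 (a nucleoside transporter). Members were chosen by symbol, and all 9 were found among the 25369 genes counted. All 9 also passed the filter on low counts, with between 586 and 73275 reads in any library, so that none was lost. The cells were U2OS, a human osteosarcoma line, carrying a Tet-On system in which doxycycline turns on a stably integrated construct. The pTRE line held the empty vector. The WT line expressed wild-type E2F1, a transcription factor that drives genes of the G1-to-S transition. The R109K line expressed E2F1 with lysine in place of the arginine that the methyltransferase PRMT1 modifies, and the KK line carried lysine in place of the 2 neighbouring arginines that PRMT5 modifies. All 4 lines, pTRE included, were kept in G418 and hygromycin B and received doxycycline at 1 ug/ml for 24 hours before poly(A) RNA was sequenced. Each line had 3 biological replicates. Each is a separate stable line, and all were compared with 1 empty-vector line, so a difference between lines includes whatever else sets these stable lines apart. In bulk RNA, more cells with a transcript and more RNA per cell cannot be told apart.

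Dividing cells need deoxynucleotides in balanced amounts. Ribonucleotide reductase, a complex of the large subunit RRM1 with a small subunit, converts ribonucleotides to deoxyribonucleotides. RRM2 is the small subunit of cycling cells and is degraded after S phase, whereas RRM2B is the p53-induced small subunit that serves repair and mitochondrial DNA in resting cells. DCTD and DUT both make dUMP, by removing an amino group from dCMP and by splitting dUTP, and TYMS methylates dUMP to dTMP. TK1 and DCK phosphorylate thymidine and deoxycytidine taken from outside the cell, and SLC29A1 (ENT1) carries nucleosides across the plasma membrane. Several of these genes, among them RRM2, TYMS, and TK1, are textbook targets of E2F factors.

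The RefSeq promoter set (GRCh38.p14, 250 bases before to 50 after each start of transcription) held 15 windows for 8 of the 9 genes. RRM2B had no entry. Each window was searched on both strands for the E2F octamers TTTCCCGC, TTTCGCGC, TTTGCCGC, and TTTGGCGC, for their last 7 letters, for CCAAT (the NF-Y box), and for TTTGAA (the cell cycle homology region of DREAM and MuvB targets). Of all 35116 RefSeq promoters, 3.31% held an E2F octamer, 13% the last 7 letters, 34.6% CCAAT, and 15.2% TTTGAA. The sites are shown for the 2 genes with the largest changes, RRM2 and DCK, and for TK1, which moved the other way. The octamers of TYMS and DUT are also shown, which lie close to the start of the window that holds them. Capitals mark the matched letters. Positions count from the start of transcription of the window that holds the site, and RRM2, TK1, and DUT had more than 1 window. RRM2 had no octamer in its 2 windows. Its upstream window held a match to the last 7 letters, which reads TTGGCGC on the other strand, and 1 CCAAT box. Its downstream window held 3 CCAAT boxes, each followed by the same 8 bases.
RRM2, upstream window, bases -250 to -237 (chr2:10122318-10122331, plus): tCCAATcgctgctc
RRM2, upstream window, bases -200 to -178 (chr2:10122368-10122390, plus): gcccgcgcGCGCCAAggccgccg
RRM2, downstream window, bases -131 to -111 (chr2:10122608-10122628, plus): aggcgcagCCAATgggaaggg
RRM2, downstream window, bases -101 to -81 (chr2:10122638-10122658, plus): tggcacagCCAATgggaaggg
RRM2, downstream window, bases -74 to -54 (chr2:10122665-10122685, plus): caccaaagCCAATgggaaggg
DCK, bases -200 to -178 (chr4:70993449-70993471, plus): ggaacctcTTCCCGCgccctgcc
DCK, bases -96 to -74 (chr4:70993553-70993575, plus): gcgcgcacGCGGGAAcccgcgct
DCK, bases 14 to 37 (chr4:70993662-70993685, plus): gcctccgcGCGCCAAAgtcaaacc
TK1, bases -85 to -65 (chr17:78187117-78187137, minus): gggcgctgATTGGccccatgg
TK1, bases -54 to -34 (chr17:78187086-78187106, minus): ggctcgtgATTGGccagcacg
TK1, bases -20 to 3 (chr17:78187050-78187072, minus): cggtcggcGCGGGAAccaggggc
TYMS, bases -47 to -24 (chr18:657606-657629, plus): ggacggccGCGGGAAAaggcgcgc
DUT, bases -45 to -17 (chr15:48332152-48332180, plus): ctgGCGGGAAAtttcggtTTTGGCGCgct

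In these windows DCK held an octamer just after the start, which reads TTTGGCGC on the other strand, and 2 more matches to the last 7 letters before it. TK1 held a match to the last 7 letters and 2 CCAAT boxes read from the other strand. All lie in 1 of its windows (start at chr17:78187052), and its other window held none of the motifs. TYMS held 1 octamer. DUT held 2 octamers, and also 2 TTTGAA matches on the other strand that are not shown. All of these DUT matches lie in 1 of its windows (start at chr15:48332197), and its other windows held none of the motifs. Neither TYMS nor DUT was called in any comparison given below. RRM1 held no octamer, but 1 match to the last 7 letters, 1 CCAAT box, and 1 TTTGAA match on the other strand, which are not shown. SLC29A1 and DCTD held neither an octamer nor its last 7 letters. SLC29A1 held a TTTGAA match in 1 window, also not shown. A match of letters is a description of the sequence and does not show binding.

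In the GRCh37 build to which the reads were aligned, RRM1 lies on chromosome 11 (4115937 to 4160162, plus strand), RRM2 on chromosome 2 (10260825 to 10351851, plus strand), and RRM2B on chromosome 8 (103216730 to 103251189, minus strand). TYMS lies on chromosome 18 (657653 to 673578, plus strand), DUT on chromosome 15 (48623208 to 48635570, plus strand), and DCTD on chromosome 4 (183811213 to 183839089, minus strand). TK1 lies on chromosome 17 (76170172 to 76183314, minus strand), DCK on chromosome 4 (71858255 to 71896631, plus strand), and SLC29A1 on chromosome 6 (44187290 to 44201879, plus strand). All 9 are protein-coding, and the counts are per gene symbol, not per transcript. The exons of TYMS overlap those of other genes most. Of the 1613 bases of its canonical transcript, 66.5% are shared with exons of ENOSF1 or TYMSOS on the other strand.

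Reads on genes numbered between 21366887 and 31040903 in 11 libraries and 11500537 in WT replicate 2, in which 58.7% of reads fell outside annotated genes against 23.6% to 29.6% in the others. All 9 members were lowest in that library among the WT replicates, as were 43.2% of all tested genes. Where the call of a member in WT against pTRE changed without that library, the result without it is given. The log2 fold changes of RRM2B and TYMS in WT, called in neither case, changed sign without it, to 0.0447 and 0.00920. Values of single list genes are from all libraries. E2F1 RNA averaged 91.2 CPM in the pTRE line (SD 9.43, n = 3; CPM are counts scaled to a common library size). The WT line averaged 1811 ± 445, the KK line 1316 ± 187, and the R109K line 1158 ± 196. The counts do not separate the construct's transcript from the cells' own. Of the mesenchymal and osteoblast markers, COL1A2 and BGLAP had at most 16 and 6 reads in any library, and VIM had at least 14316. The summed level of the 10 markers was 6741 to 8023 CPM in pTRE and 2609 to 3716 in the E2F1 lines, and that of 5 epithelial markers was 49.3 to 70.2 against 18.2 to 24.6. In WT, 4 of 8 tested markers of the first set and 1 of 5 of the second were lower (edgeR adjusted p under 0.01), and 0 were higher. In unscaled CPM over all libraries, COL1A1 ranged from 537 to 3966 and VIM from 1245 to 1744. CLDN4 ranged from 5.84 to 54.9 and EPCAM from 10.7 to 14.7. Of the markers of blood and endothelial cells, CD3E, HBB, PECAM1, and CDH5 had at most 11 reads in any library, PTPRC at most 18, CD14 at most 24, and VWF at most 74. Of the 3 that were tested (PTPRC, CD14, and VWF), 1 was higher and 1 lower in WT, and 0 were higher and 1 lower in KK and in R109K. The part of these shifts in the results below was not tested.

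**Figure D1:**
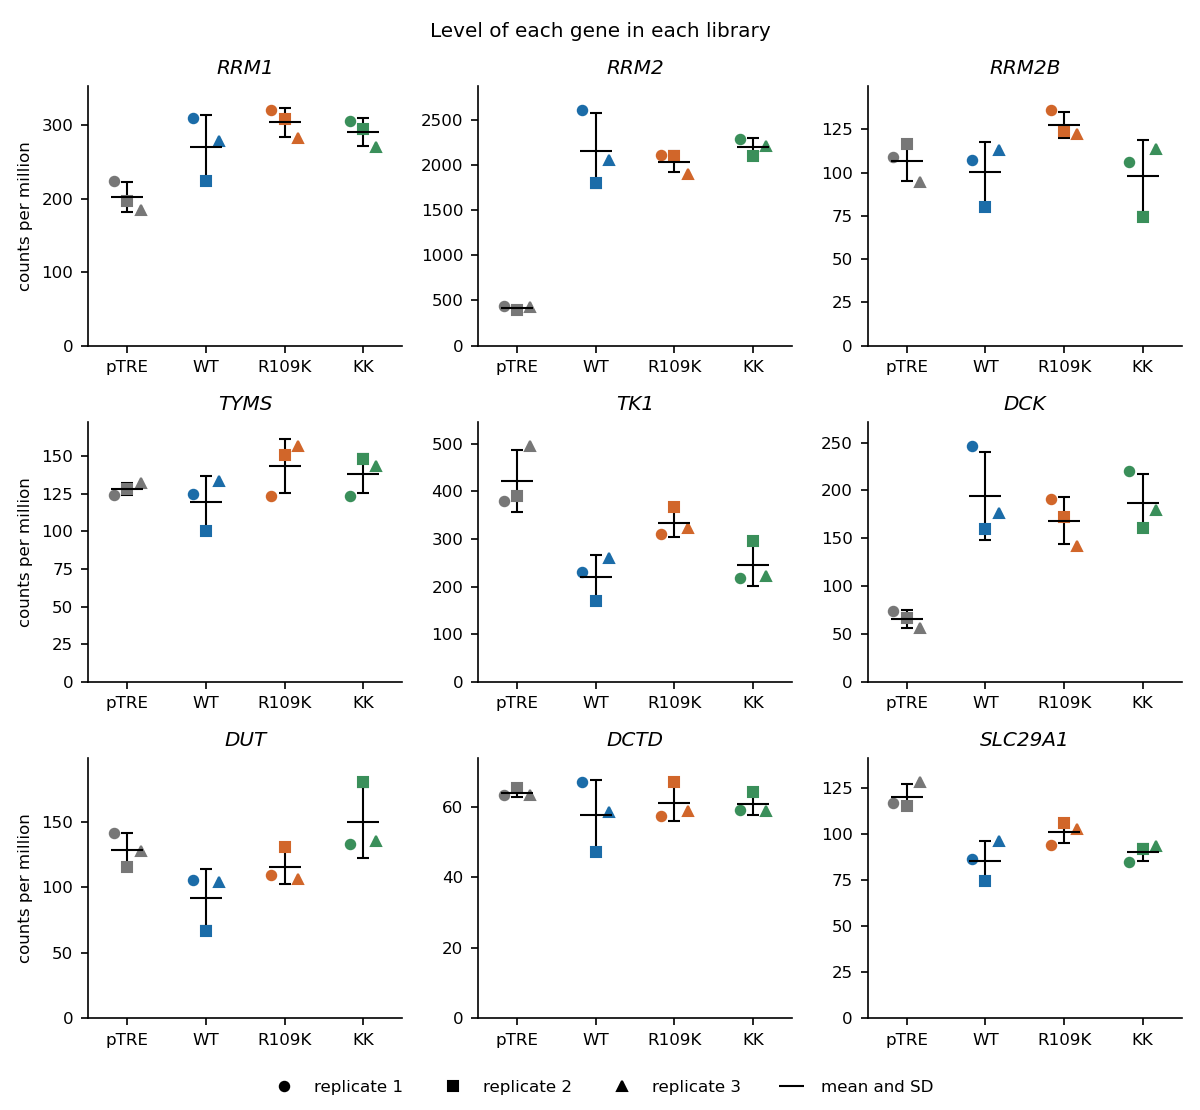
Level of each of the 9 genes in each of the 12 libraries, in CPM on a linear axis from 0. Points are replicates, and bars are the mean and SD of 3 replicates per line. RRM2 and DCK were higher in every E2F1-expressing library than in every pTRE library, TK1 was lower in all of them, and TYMS and DCTD overlapped.

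Levels between genes were compared as CPM per kilobase of canonical transcript. In pTRE cells TK1 was the most abundant of the 9, at 295 ± 44.9 CPM per kilobase (SD, n = 3), and RRM2 followed at 128 ± 5.98. TYMS came next at 79.4 ± 2.49. Its place is uncertain here and in the other lines. Of its canonical length, 66.5% is shared with exons of other genes, and how reads there were counted is not known. RRM1, DUT, and SLC29A1 stood between 57.6 and 64.4 with overlapping neighbours, DCTD stood at 33.1 ± 0.637, and DCK and RRM2B, at 26.2 ± 3.60 and 22.3 ± 2.37, overlapped at the bottom. In all 3 E2F1 lines RRM2 stood first and TK1 second. RRM2 was at 661 ± 127 in WT, 624 ± 36.1 in R109K, and 674 ± 30.2 in KK, and TK1 was at 154 ± 31.8, 233 ± 20.5, and 172 ± 30.5. DCK moved up from the eighth place in pTRE to the fourth in WT and the fifth in R109K and KK, where it overlapped a neighbour in the order. RRM2B was the lowest in every line.

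RRM2 and DCK rose in all 3 E2F1 lines, TK1 fell in WT and KK, and TYMS, DUT, DCTD, and RRM2B were called in none of them. A gene was called at an adjusted p under 0.01 in edgeR's quasi-likelihood test against pTRE, with Benjamini-Hochberg adjustment over all 16625 genes tested. In WT, 2 members rose (RRM2 and DCK) and 2 fell (TK1 and SLC29A1), and over all tested genes 14.8% rose and 11.4% fell. In KK, 3 rose (RRM2, DCK, and RRM1) and 1 fell (TK1), against 13.8% and 10.7% of all genes. In R109K the same 3 genes as in KK rose and 0 fell, against 10.0% and 7.23%. At an unadjusted p under 0.05, 4 members differed in either direction in R109K, as did 6422 of the 16625 tested genes. DESeq2 also called no fall among the members in R109K. With a change greater than 2-fold required in addition, RRM2 and DCK remained in each line. Genes up by more than 2-fold made up 7.89% of all tested genes in WT, 7.01% in KK, and 4.64% in R109K. The median log2 fold change of the 9 members was -0.10 in WT, 0.11 in KK, and 0.16 in R109K, and that of all genes lay within 0.01 of 0 in each line. The 3 comparisons share the same pTRE libraries.

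**Figure D2:**
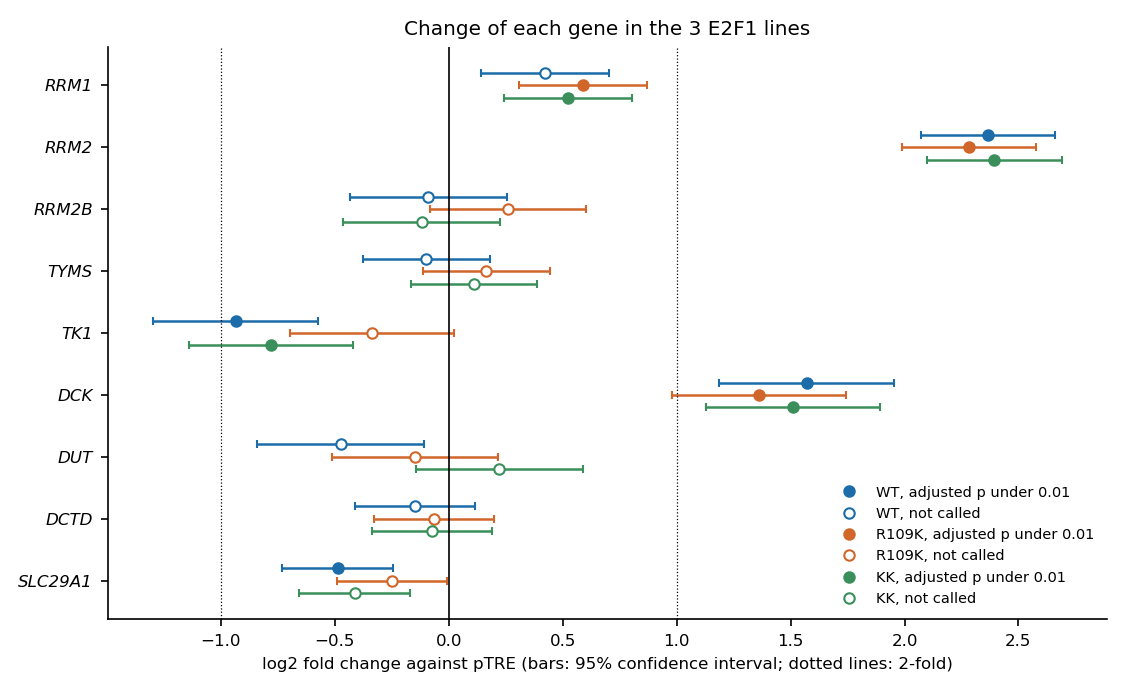
Log2 fold change of each gene against pTRE in the WT, R109K, and KK lines, from edgeR, with 95% confidence intervals over 3 replicates per line. Filled points passed an adjusted p of 0.01 and open points did not, and dotted lines mark 2-fold. RRM2 lies near 2.3 to 2.4 in all lines, DCK between 1.36 and 1.57, and TK1 between -0.94 and -0.34.

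RRM2 had the largest change of the 9 in every line. It stood at 434, 396, and 424 CPM in the pTRE replicates, at 2610, 1803, and 2050 in WT, at 2107, 2094, and 1897 in R109K, and at 2288, 2093, and 2210 in KK. The lowest E2F1-expressing library, at 1803, lay far above the highest pTRE library, at 434, and the 3 E2F1 lines overlapped each other. The rise was 5.16-fold in WT (95% interval 4.20 to 6.32, edgeR adjusted p = 1.20e-08), 5.26-fold in KK (4.28 to 6.45, adjusted p = 1.22e-08), and 4.86-fold in R109K (3.97 to 5.96, adjusted p = 5.09e-08). Without WT replicate 2 the rise in WT was 5.57-fold. RRM2 was past 2-fold also when the fold itself was tested (edgeR's glmTreat). The RRM2 span given above is that of GENCODE v44, and the annotation used for counting is not given. C2orf48, tested along with the genes that overlap members, had a row of its own in the counts. C2orf48 averaged 11.4 CPM in pTRE and 21.8 in WT (edgeR log2 fold change 0.91, adjusted p = 0.00338). It was not called in KK or R109K.

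RRM1, the large subunit, changed much less. Its levels were 224, 198, and 185 CPM in pTRE, 310, 224, and 279 in WT, 322, 309, and 282 in R109K, and 307, 296, and 271 in KK. All R109K and KK libraries lay above all pTRE libraries, while WT replicate 2 was at the level of the highest pTRE library. The log2 fold change was 0.59 in R109K (SE 0.13, adjusted p = 0.00346) and 0.53 in KK (SE 0.13, adjusted p = 0.00562). In WT it was 0.42 (SE 0.13, adjusted p = 0.0189), which did not pass, and 0.54 (adjusted p = 0.00192) without WT replicate 2. The calls in R109K and KK lay near the threshold, and most removals of a single library lost them. With each replicate left out, the log2 fold change stayed between 0.53 and 0.67 in R109K and between 0.46 and 0.60 in KK. Without pTRE replicate 2 or 3, or R109K replicate 1 or 2, the adjusted p in R109K was between 0.0139 and 0.0239, and without pTRE replicate 2 or 3, or any of the KK replicates, that in KK was between 0.0119 and 0.0318.

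RRM2B, the alternative small subunit, was called in none of the lines. Its levels were 108.9, 117, and 94.4 CPM in pTRE, 107, 79.9, and 113 in WT, 136, 124, and 123 in R109K, and 106, 74.4, and 114 in KK. The R109K libraries lay above all pTRE libraries, with a log2 fold change of 0.26 (95% interval -0.08 to 0.60, adjusted p = 0.258). In WT the log2 fold change was -0.09 (-0.43 to 0.25, adjusted p = 0.680) and in KK -0.12 (-0.46 to 0.22, adjusted p = 0.606). These intervals leave room for changes of up to about 1.52-fold in R109K, but not for a rise of the size seen for RRM2. Without KK replicate 2, the log2 fold change of RRM2B in KK changed sign, to 0.0430.

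Of the salvage kinases, DCK rose and TK1 fell. DCK stood at 74.0, 66.6, and 56.0 CPM in pTRE, at 247, 160, and 177 in WT, at 191, 173, and 142 in R109K, and at 220, 161, and 179 in KK. Every E2F1-expressing library was above every pTRE library, and the E2F1 lines overlapped. The rise was 2.97-fold in WT (95% interval 2.28 to 3.87, adjusted p = 7.72e-06), 2.85-fold in KK (2.19 to 3.71, adjusted p = 1.12e-05), and 2.57-fold in R109K (1.97 to 3.35, adjusted p = 4.70e-05). When the fold itself was tested against 2-fold, DCK did not pass (glmTreat adjusted p = 0.0145 in WT, 0.0283 in KK, and 0.194 in R109K). Of the canonical DCK transcript, 7.94% is shared with exons of MOB1B on the same strand. MOB1B was at 90.1 CPM in pTRE and 97.8 in WT, with a log2 fold change of 0.12 (adjusted p = 0.605).

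TK1 stood at 380, 390, and 496 CPM in pTRE, at 231, 170, and 259 in WT, at 311, 367, and 323 in R109K, and at 218, 296, and 223 in KK. Every E2F1-expressing library lay below every pTRE library, and R109K lay between pTRE and the other lines. TK1 fell to 52.3% of pTRE in WT (log2 fold change -0.94, SE 0.17, adjusted p = 4.89e-04) and to 58.2% in KK (-0.78, SE 0.17, adjusted p = 0.00202). In R109K the level was 79.1% of pTRE and was not called (-0.34, SE 0.17, adjusted p = 0.155). Without WT replicate 2 the fall in WT was -0.78 (adjusted p = 0.00101). The call in KK was lost without pTRE replicate 3 (-0.65, adjusted p = 0.0152), KK replicate 1 (-0.70, adjusted p = 0.0149), or KK replicate 3 (-0.72, adjusted p = 0.0147). SYNGR2, 564 bases beyond the far end of TK1, had a log2 fold change of -0.78 in WT (adjusted p = 0.00111). AFMID, which starts 125 bases from TK1 on the opposite strand, had one of -0.29 (adjusted p = 0.178).

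SLC29A1, through which nucleosides enter for salvage, stood at 117, 115, and 128 CPM in pTRE, at 86.3, 74.3, and 96.1 in WT, at 94.2, 106, and 103 in R109K, and at 84.9, 92.1, and 93.6 in KK. Every E2F1-expressing library lay below every pTRE library. It fell in WT by a log2 fold change of -0.49 (SE 0.11, adjusted p = 0.00338). The call was lost without pTRE replicate 3 (adjusted p = 0.0163), WT replicate 1 (0.0115), or WT replicate 2 (0.0111), and in a fit of the 6 libraries alone (0.0147). In KK the change was -0.41 (SE 0.11), with an adjusted p of 0.0101 just above the threshold, and in R109K it was -0.25 (SE 0.11, adjusted p = 0.117). DESeq2 called the KK change (adjusted p = 0.00226), and upper quartile normalization did as well (0.00440).

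The genes of the thymidylate route were not called against pTRE. TYMS stood at 124, 128, and 132 CPM in pTRE, at 125, 100, and 133 in WT, at 123, 151, and 157 in R109K, and at 124, 148, and 143 in KK. The lines overlapped, and the 95% intervals of the log2 fold change were -0.38 to 0.18 in WT, -0.11 to 0.44 in R109K, and -0.17 to 0.39 in KK. A 2-fold change of TYMS RNA was thus outside all 3 intervals. The counts of ENOSF1, the gene on the other strand, averaged 52.3 CPM in pTRE and 57.0 in WT, and 71.7 in WT replicate 2. Whether counting used the strand of the directional libraries is not given in the sources used here, and without strand the reads on shared exons of TYMS and ENOSF1 cannot be told apart.

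DUT stood at 141, 115, and 128 CPM in pTRE, at 105, 66.8, and 104 in WT, at 110, 131, and 106 in R109K, and at 133, 180, and 135 in KK. All WT libraries lay below all pTRE libraries, with a log2 fold change of -0.47 (SE 0.17, adjusted p = 0.0390), which was -0.29 (adjusted p = 0.135) without WT replicate 2. In KK the log2 fold change was 0.22 (SE 0.17, adjusted p = 0.341). The annotation lists 8 DUT pseudogenes, 3 of RRM2, and 2 of TYMS, none of which has a row of its own in the counts, so how reads from such copies were treated cannot be seen. DCTD had the narrowest range, from 47.1 CPM in WT replicate 2 to 67.0 in R109K replicate 2, with log2 fold changes of -0.15 in WT, -0.07 in R109K, and -0.08 in KK (adjusted p from 0.353 to 0.745).

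When the E2F1 lines were compared with each other, which asks whether the arginine substitutions alter the response, no member was called by edgeR. Between R109K and WT 2 members, between KK and WT 1, and between R109K and KK 3 had an unadjusted p under 0.05. Of all 16625 tested genes, 3714, 1415, and 2062 did so in these comparisons. Over all tested genes, 0.710% were called between R109K and WT, 0.0120% between KK and WT, and 0.132% between R109K and KK. DESeq2 also called 0 members in each of these comparisons. RRM2 differed between KK and WT by a log2 fold change of 0.03 (95% interval -0.25 to 0.31) and between R109K and WT by -0.08 (-0.36 to 0.20). DCK differed by -0.06 (-0.43 to 0.31) and -0.21 (-0.58 to 0.17). These intervals exclude a 2-fold difference between lines for both genes.

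TK1 showed the largest difference between R109K and the other lines. It was 1.51-fold higher in R109K than in WT (log2 fold change 0.60, 95% interval 0.24 to 0.96, adjusted p = 0.0636), with no overlap of replicates, and 1.36-fold higher than in KK (0.44, interval 0.08 to 0.80, adjusted p = 0.261). Without WT replicate 2 the difference from WT was 0.44 (adjusted p = 0.179), and DESeq2 gave 0.60 (adjusted p = 0.0167). Over all alternative models the difference was 0.59 to 0.62, with adjusted p from 0.0167 to 0.123. E2F1 RNA was itself lower in R109K than in WT by a log2 fold change of -0.65 (SE 0.18, adjusted p = 0.0577), so the substitution and the amount of E2F1 RNA cannot be told apart here. DUT was 1.62-fold higher in KK than in WT (log2 fold change 0.70, interval 0.33 to 1.06, unadjusted p = 0.00106, adjusted p = 0.533), with every KK library above every WT library.

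Ratios between 4 pairs of members were then compared within each library, which removes any scaling that a library's genes share. The ratios are of CPM not scaled for transcript length, so their values serve to compare lines and do not say which gene of a pair was the more abundant. The ratio of RRM2 to RRM1 went from 2.08 ± 0.188 (SD, n = 3) in pTRE up to 7.94 ± 0.542 in WT, 6.68 ± 0.115 in R109K, and 7.57 ± 0.550 in KK. That of RRM2 to RRM2B, the exchangeable small subunits, was 3.96 ± 0.547 in pTRE, 21.7 ± 3.15 in WT, 15.9 ± 0.798 in R109K, and 23.0 ± 4.54 in KK. TK1 to DCK went the other way, from 6.61 ± 1.97 in pTRE to 1.16 ± 0.276 in WT, 2.01 ± 0.341 in R109K, and 1.36 ± 0.437 in KK. TYMS to TK1 was 0.307 ± 0.0356 in pTRE, 0.547 ± 0.0383 in WT, 0.431 ± 0.0478 in R109K, and 0.570 ± 0.0712 in KK. All 4 ratios separated each E2F1 line from pTRE without overlap. The two-sided exact permutation p was 0.1 in each of these 12 comparisons, the smallest that 3 against 3 libraries allow, and 0.126 after adjustment over the 24 tests made, so the design cannot pass 0.05.

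**Figure D3:**
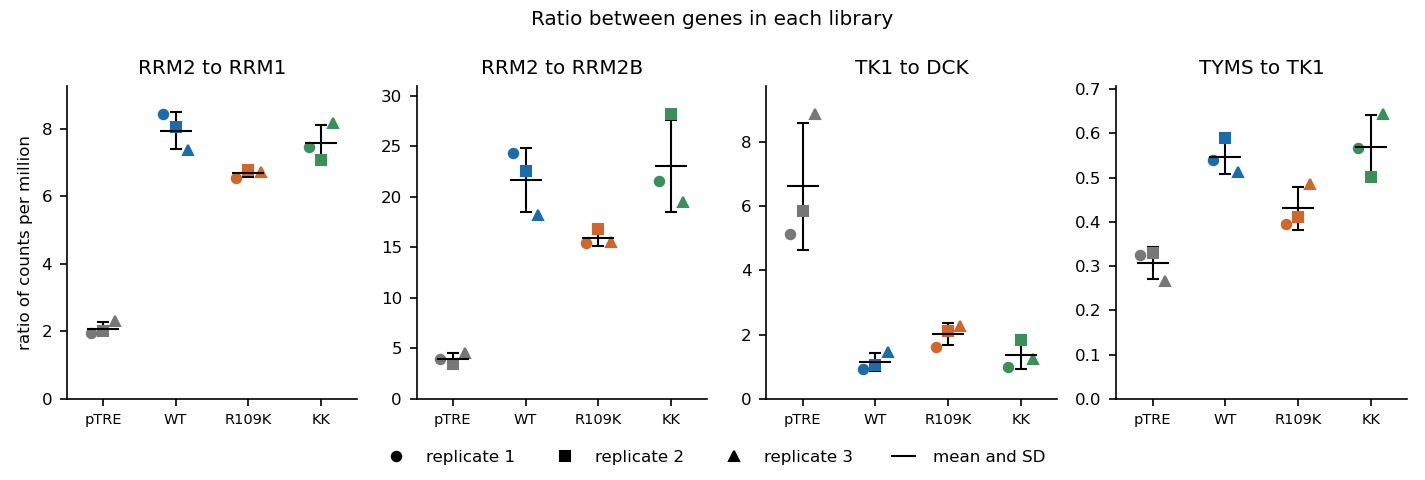
Ratios of CPM between pairs of genes in each library, on linear axes from 0, with replicates as points and the mean and SD of 3 replicates per line as bars. RRM2 to RRM1 and RRM2 to RRM2B were lowest in pTRE, and TK1 to DCK was highest there, at 5.14 to 8.85 against at most 2.28 in the other lines.

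Between the E2F1 lines, the R109K libraries stood apart from WT in all 4 ratios without overlap. RRM2 to RRM1 was 0.843 times that of WT, RRM2 to RRM2B 0.740 times, TYMS to TK1 0.785 times, and TK1 to DCK 1.75 times, each with an exact permutation p of 0.1. KK overlapped WT in all 4 ratios. R109K also stood apart from KK in RRM2 to RRM1, RRM2 to RRM2B, and TYMS to TK1, and overlapped KK in TK1 to DCK. The 4 ratios share RRM2 and TK1, so they are not separate observations, here or against pTRE. How often the ratios of other gene pairs separate these lines was not examined. The ratios are of RNA counts per gene and do not give amounts of protein.

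The remaining nucleotide genes were examined in 7 lists of 80 genes, of which 77 were tested. Of these, 8 rose and 12 fell in WT (26.0% called), 9 rose and 9 fell in KK (23.4%), and 9 rose and 4 fell in R109K (16.9%). Over all tested genes, 14.8% rose and 11.4% fell in WT, 13.8% and 10.7% in KK, and 10.0% and 7.23% in R109K, so the share called in these lists was close to that of all genes in each line. These counts changed when single libraries were left out. In WT the 20 became 13, 12, and 13 without pTRE replicate 1, 2, or 3, and 10 without WT replicate 1. In R109K the 13 became 8 without pTRE replicate 1 or 2, 7 without R109K replicate 1, and 8 without R109K replicate 2, while DESeq2 called 21. Among the 15 genes of the folate cycle, which supplies TYMS with its methyl donor, 1 rose and 2 fell in WT. SHMT1, which loads the one-carbon unit, rose from 39.8 to 54.7 CPM (log2 fold change 0.46, adjusted p = 0.00411). MTHFD1 fell from 460 to 335 CPM (-0.46, adjusted p = 0.00337), and so did DHFRL1, a copy of dihydrofolate reductase (-0.55, adjusted p = 0.00315). Of the 12 genes of de novo purine synthesis only IMPDH2, the first enzyme towards guanine nucleotides, changed in WT (-0.71, adjusted p = 0.00239). In KK it was PFAS that changed. The 5 genes of de novo pyrimidine synthesis had log2 fold changes between -0.04 and 0.50 over the 3 lines, and none was called by edgeR.

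Of 13 nucleotide kinases, CMPK2, the mitochondrial UMP-CMP kinase, rose from 0.976 ± 0.405 CPM (SD, n = 3) in pTRE to 21.8 ± 4.46 in WT, 23.8 ± 3.70 in KK, and 13.9 ± 2.12 in R109K, rises of 22.04-fold, 24.1-fold, and 14.04-fold (adjusted p = 8.80e-09, 8.97e-09, and 9.80e-08). NME3 and AK1 fell in WT (-1.01 and -0.80, adjusted p = 0.00450 and 0.00425) and were not called in KK or R109K. Among 14 tested salvage enzymes, 3 rose and 3 fell in WT. CDA, which deaminates cytidine and deoxycytidine, fell in all 3 lines, to 32.0% of the pTRE level in WT, 51.8% in R109K, and 41.8% in KK (adjusted p = 1.53e-04, 0.00954, and 0.00113). ADA, which deaminates deoxyadenosine, fell by 0.88 in WT, 0.83 in R109K, and 0.72 in KK on the log2 scale. UCK1, the uridine-cytidine kinase, rose by 0.74 in WT, 0.67 in R109K, and 0.96 in KK. CDA and DCK share the substrate deoxycytidine.

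**Figure D4:**
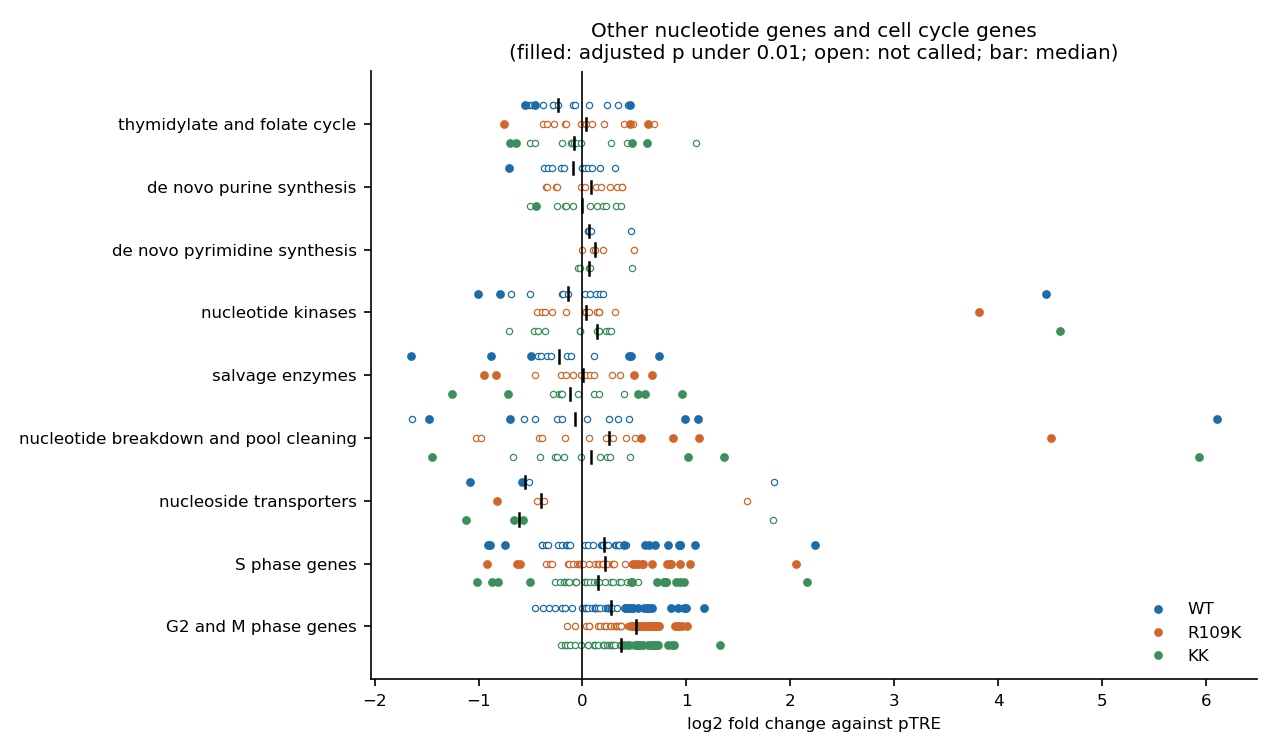
Log2 fold change against pTRE of every tested gene of the 7 nucleotide lists and of 2 cell cycle lists, for WT, R109K, and KK. Filled points passed an adjusted p of 0.01, and black bars are list medians, which lie between -0.61 and 0.51. CMPK2 and NT5E are the points beyond 3.

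Of the 14 genes that break down nucleotides or clean the pool, SAMHD1, which hydrolyses dNTPs, rose from 15.2 ± 0.875 CPM in pTRE to 32.8 ± 1.06 in WT, 30.6 ± 7.35 in KK, and 27.7 ± 1.94 in R109K (log2 fold changes 1.11, 1.02, and 0.87, adjusted p = 3.73e-05, 8.48e-05, and 4.84e-04). NT5M, the mitochondrial deoxyribonucleotidase, rose in all 3 lines as well (0.99 in WT, 1.37 in KK, and 1.12 in R109K), and NUDT18 fell in WT and KK (-1.48 and -1.45). NT5E, named here after its values were seen, had at most 1 read in the pTRE libraries and 15 to 34 in WT, 10 to 13 in R109K, and 17 to 34 in KK. Among the 4 tested nucleoside transporters other than SLC29A1, SLC29A4 fell in all 3 lines (-1.08 in WT, -1.12 in KK, and -0.82 in R109K) and SLC29A3 in WT and KK (-0.58 and -0.57).

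Cell cycle genes were examined in the same libraries. The summed level of 40 S phase genes was 5031 to 5477 CPM in pTRE, against 5438 to 6156 in WT, 5737 to 5953 in KK, and 5954 to 6321 in R109K. Of the 40, 10 rose and 3 fell in WT, 11 and 4 in KK, and 13 and 3 in R109K, where 14.8% of all tested genes rose and 11.4% fell in WT, 13.8% and 10.7% in KK, and 10.0% and 7.23% in R109K. CCNE2, which encodes cyclin E2, rose 4.71-fold in WT, 4.48-fold in KK, and 4.17-fold in R109K. MCM5 of the replicative helicase, named after its values were seen, was at 184 to 221 CPM in pTRE and at 95.9 to 114 in the E2F1 lines. The summed level of 54 genes of G2 and M phase was 12115 to 13048 CPM in pTRE and 15100 to 18784 in the E2F1 lines. Of these, 18 rose in WT, 19 in KK, and 30 in R109K, beside the same shares of all genes, and 0 fell in any line. The share of cells in each phase was not measured in these files, and its part in the changes of the 9 members was not tested.

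The genes whose levels were most like those of 3 members across the 12 libraries were found by Pearson's r of log2 CPM over the 13304 genes that averaged 50 or more reads. For RRM2 they were OLFM1 (r = 0.996), FAM111B (0.994), and CD83 (0.994), for TK1 LMNA (0.985), SNX17 (0.985), and PYCR1 (0.983), and for RRM2B MTFR1 (0.975), SLC38A2 (0.927), and ZDHHC6 (0.922). With the line means removed, r was 0.826, 0.739, and 0.953 for the 3 genes like RRM2, between 0.943 and 0.970 for those like TK1, and between 0.872 and 0.964 for those like RRM2B. The libraries share lines and normalization, so these values are descriptions of likeness. Of the 18 nearest annotated neighbours of the 9 genes, 14 were tested, and 2 rose and 4 fell in WT, where 14.8% of all tested genes rose and 11.4% fell. STIM1, 1497 bases from RRM1 on the same strand, had log2 fold changes of 0.58 in WT, 0.61 in KK, and 0.54 in R109K (adjusted p = 4.69e-04, 3.04e-04, and 0.00113), next to 0.42, 0.53, and 0.59 for RRM1.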

How the data were processed

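The authors deposited raw counts per gene symbol for each of the 12 libraries, 3 per line, with 5 closing summary lines of the kind htseq-count writes. Per the submitters' processing notes, reads were trimmed with Trim Galore 0.4.3 and aligned to hg19 with STAR 2.5.1, and the authors tested with DESeq2 1.16.1. The annotation version and the strand setting are not given in the sources used here. The summary lines (34.3% to 68.8% of reads) were left out of library sizes and tests.

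The tests used edgeR 4.0.16 (R 4.3.3). filterByExpr kept 16625 of 25369 genes. TMM set the library sizes, and all 12 libraries entered a single quasi-likelihood fit with 1 mean for each line (common dispersion 0.0239). Calls needed an adjusted p under 0.01, and where stated a change over 2-fold. CPM use TMM library sizes, and log2 CPM of single libraries add a prior count of 2. SE and 95% intervals come from the same model. Ratios were tested by exact permutation with scipy. The code was tested on simulated counts. The labels call the replicates biological without saying how they were grown. No 2 libraries of a line agreed within sampling noise (chi-square per degree of freedom 7.51 to 46.8). In each E2F1 line replicates 1 and 3 were the closest pair (11.6 in WT, 8.55 in R109K, and 7.51 in KK). The pairs with replicate 2 stood at 46.4 and 46.8 in WT, 25.4 and 18.2 in R109K, and 42.1 and 30.2 in KK.

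The members and lists were chosen with earlier results of these data known. Named are the 9 members, E2F1, and, per list, at most the 3 genes of largest change called in WT and averaging 50 or more reads. Positions come from GENCODE v44 lifted to GRCh37, and promoters from RefSeq (GRCh38.p14). Alternatives were DESeq2 1.42.0, RLE and upper quartile normalization, no filter, at least 10 counts in every library, the 6 libraries alone, the replicate number as a block, glmTreat, an adjusted p under 0.05, and each replicate left out. One marker gene is not reported here.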

Additional observations from a re-analysis of the deposited data

Results flagged for a closer look

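DUT lay on opposite sides of the pTRE mean in WT and KK, and was called against pTRE in neither line. The KK libraries overlapped those of pTRE. Every KK library lay above the pTRE mean of 128 CPM and every WT library below it. The direct difference between KK and WT was 0.70 on the log2 scale, and it did not pass after adjustment over all genes (unadjusted p = 0.00106, adjusted p = 0.533). Without WT replicate 2 it was 0.52 (adjusted p = 0.938).

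The share of reads outside annotated genes in WT replicate 2, a quantity no comparison uses, was 58.7%, above the 25.0% to 28.3% of the pTRE libraries. Groups of 3 libraries were too small for a check of single outlying replicates.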

How the results depend on the processing

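Over 900 checks of a log2 fold change of the 9 members and E2F1 under an alternative, 852 kept their direction and their side of the threshold. Of the rest, 19 lost a call, 9 gained one, and 20 that were never called changed sign. For glmTreat and an adjusted p under 0.05, the log2 fold changes were those of the main fit. With glmTreat, only main calls past 2-fold could be counted as lost. The number of members past the adjusted p was 3 to 6 in WT, 4 to 5 in KK, and 3 in R109K under the models of all replicates, and with each replicate left out it was 3 to 4, 2 to 4, and 2 to 3. Without pTRE replicate 3, KK replicate 1, or KK replicate 3, RRM2 and DCK were the 2 members called in KK. Past both thresholds there were 2 to 3 members in WT, 2 in KK, and 2 in R109K when each replicate was left out. With the fold tested against 2-fold (glmTreat) there was 1 in each line, RRM2. This test asks for more than the main thresholds do. For the 7 nucleotide lists the count was 10 to 20 in WT, 14 to 16 in KK, and 7 to 11 in R109K when replicates were left out, and in R109K it was 21 with DESeq2. The cause of these moves was not tested. No member was called between the E2F1 lines under any alternative of normalization, filter, tool, or replicate, with an adjusted p under 0.01.

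The replicate number was tried as a block. After the line means were removed, same-numbered libraries of different lines had a mean correlation of 0.0436 over 18 pairs (-0.295 to 0.470). Of these pairs, 5 were over 0.1. Differently numbered libraries of different lines averaged -0.0235 over 36 pairs (-0.383 to 0.314), and 9 were over 0.1. The ranges overlap, so they do not settle whether same-numbered libraries share more than a number. With the replicate block, 4 members were called in WT, 5 in KK, and 3 in R109K, the fifth in KK being SLC29A1 (adjusted p = 0.00877). Another scaling moved the median of all genes by less than 0.1. At 3 replicates per line, the smallest change of a member called against pTRE was -0.49 on the log2 scale (SLC29A1 in WT).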
